A study of Mus musculus with 6 samples.

Results

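The transcripts of the MEF2 transcription factors *Mef2a*, *Mef2c* and *Mef2d*, of the coactivator myocardin (*Myocd*) and of the class IIa histone deacetylases *Hdac4*, *Hdac5*, *Hdac7* and *Hdac9* were followed in hearts of mice whose *Trdn-as* locus, a long non-coding RNA gene, no longer gives its transcript. The genes were taken by symbol from the deposited expression table, and these 8 of its 21776 genes were all found there. *Mef2b* was not analysed here. RNA-seq had been performed on 3 *Trdn-as* KO hearts and 3 WT hearts, and the question asked here was whether the KO hearts differed from WT hearts in this group of regulators and in the genes around it. None of the 8 genes passed the adjusted threshold between KO and WT hearts, and the largest fitted difference was that of *Myocd*, with a log2 fold change of -0.21.

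MEF2 proteins bind a short A/T-rich element in the promoters and enhancers of muscle genes and drive their transcription. Class IIa histone deacetylases dock onto MEF2 and hold its targets in a repressed state. Calcium-dependent and stress-dependent kinases phosphorylate the deacetylases, 14-3-3 proteins bind the phosphorylated form, and the complex leaves the nucleus, which frees MEF2 for activators such as p300. In the heart this axis is known as a link between calcium signalling and the adult and hypertrophic gene programs. Myocardin, a cardiac and smooth muscle coactivator, works mainly through serum response factor, and its cardiac isoform can also bind MEF2.

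The KO allele carries a polyadenylation signal placed by Cas9 into the first exon of *Trdn-as* in mouse embryonic stem cells. Chimeras from these cells were backcrossed to C57BL/6 mice, and homozygous animals gave the KO hearts. The allele is present in all cells of the animal, although *Trdn-as* itself is a transcript of heart muscle. The comparison hearts were labelled WT. The series title speaks of the adult heart, and the age and sex of the sequenced animals, and the number of stem cell clones behind the line, are not given in the sources used here. Each library came from a different heart, 3 in each group.

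The libraries were made from total RNA with a stranded kit. The deposited values summed to between 3133225 and 3253754 per heart, and the read totals estimated from the spacing of the values ran from 2.59 M in WT replicate 1 to 3.62 M in KO replicate 1. *Trdn-as*, listed as AC157017.2 (chr10:33222345-33256418, minus strand), was at 1, 0 and 1 normalised read counts in KO hearts versus 690, 773 and 688 in WT hearts. *Trdn*, the triadin gene on the opposite strand, had 2489, 2381 and 2551 in the KO group versus 1541, 1541 and 1516 in the WT group. Cardiomyocyte markers were abundant in every heart, with a summed level of 94444 to 120314 over 8 genes, most of it *Ttn* at 73738 to 94044, and 4 atrial markers summed to between 434 and 620. Skeletal muscle markers summed to between 4 and 11. All 8 cardiomyocyte markers were nominally lower in KO hearts with a median log2 fold change of -0.15, and 0 passed the adjusted threshold in limma. The highest sum, 120314, belonged to WT replicate 1, the heart with the fewest estimated reads. The lowest, 94444, belonged to KO replicate 1, the heart with the most. With each library's deviation corrected for read density, the marker median was -0.04. The part of read depth in the marker values was not tested. In bulk tissue, fewer cells of a type and less RNA per cell cannot be told apart.

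The RefSeq promoter windows (GRCm38.p6, from 250 bases before each annotated start to 50 bases after it) were searched for the MEF2 consensus because a MEF2 gene or its corepressor could carry the element that the family binds. The windows covered 7 of the 8 genes, all but *Myocd*, with 13 annotated starts. The consensus was found on either strand in 2 of these 13 windows and in 3.19% of all 32851 windows. The sequences with a match belong to *Mef2a* and *Hdac5* and are shown 5′ to 3′ on the gene's strand, with the matched bases in capitals. The first lies at chr7:67372851-67373108 on the minus strand and ends with its match. The second lies at chr11:102230173-102230422 on the minus strand and ends at the base before the annotated start.
Mef2a: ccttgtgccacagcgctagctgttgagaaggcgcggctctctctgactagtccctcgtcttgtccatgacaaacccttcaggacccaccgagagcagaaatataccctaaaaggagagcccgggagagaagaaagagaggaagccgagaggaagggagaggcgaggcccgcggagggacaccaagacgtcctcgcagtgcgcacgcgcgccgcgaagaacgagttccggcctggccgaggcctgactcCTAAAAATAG
Hdac5: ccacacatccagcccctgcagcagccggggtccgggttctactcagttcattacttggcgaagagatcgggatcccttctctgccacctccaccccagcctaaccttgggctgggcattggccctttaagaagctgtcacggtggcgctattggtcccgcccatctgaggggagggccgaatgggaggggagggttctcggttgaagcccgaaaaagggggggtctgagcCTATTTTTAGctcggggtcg
In *Mef2a* the match runs from chr7:67372851 to chr7:67372860 and covers the annotated start, with 2 bases before it and 8 bases inside the first exon. In *Hdac5* the match lies from 20 to 11 bases before the start. A CArG box, the element of serum response factor, was found in 0 of the 13 windows and in 1.63% of all windows. The M-CAT letters CATTCC, read on both strands, were found in 3 windows of *Hdac7* and *Mef2c* and in 14.7% of all windows. These matches describe letters in a window, and binding was not measured.

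*Mef2a* (chr7:67231163-67372858, minus strand) encodes the MEF2 factor with the highest normalised read count here. Its counts were 1625, 1644 and 1640 in the KO group versus 1741, 1617 and 1472 in the WT group. The KO hearts lay close to each other, inside the wider range of the WT hearts. The mean was 1636 ± 10.02 (SD, n = 3) in KO hearts and 1610 ± 135 (SD, n = 3) in WT hearts, a ratio of 1.016. The log2 fold change was 0.03 with a standard error of 0.06 and a 95% interval from -0.10 to 0.15 (limma, adjusted p = 0.978).

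*Mef2c* (chr13:83504034-83667080, plus strand) is the MEF2 gene required for early heart development. It had 927, 847 and 961 counts in the KO group versus 971, 945 and 918 in the WT group. KO replicate 2 was the lowest of the 6 hearts, and the other KO hearts fell among the WT values. The group means were 912 ± 58.5 and 945 ± 26.5 (SD, n = 3 each), and the log2 fold change was -0.05 with an interval from -0.18 to 0.07 (limma, adjusted p = 0.947).

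*Mef2d* (chr3:88142372-88172086, plus strand) encodes the MEF2 factor known for its role in stress-induced remodelling of the adult heart. It had 778, 668 and 667 counts in the KO group versus 657, 686 and 661 in the WT group. KO replicate 1 was the highest heart, and the remaining 5 hearts lay close together. The means were 704 ± 63.8 in KO hearts and 668 ± 15.7 in WT hearts (SD, n = 3 each). The log2 fold change was 0.07 with an interval from -0.07 to 0.21 (limma, adjusted p = 0.924).

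*Myocd* (chr11:65176561-65269989, minus strand) showed the largest difference of the 8 genes. Its counts were 799, 655 and 648 in the KO group versus 880, 773 and 776 in the WT group. KO replicates 2 and 3 were below every WT heart, whereas KO replicate 1 lay between the WT values, so the groups overlapped. The means were 701 ± 85.2 and 810 ± 60.9 (SD, n = 3 each), a ratio of 0.865. The log2 fold change was -0.21 with a standard error of 0.08 and a 95% interval from -0.37 to -0.05, which corresponds to 0.772 to 0.965 of the WT level. The unadjusted p was 0.0125, rank 209 of the 13753 genes tested, and the adjusted p was 0.807 (limma). Without WT replicate 1 the log2 fold change was -0.15 with an unadjusted p of 0.0899, and without KO replicate 2 or KO replicate 3 the unadjusted p was 0.0677 and 0.0801. Without KO replicate 1 it was -0.31, with an adjusted p of 0.081. The cardiomyocyte markers moved in the same direction as *Myocd*, as described above, and their part in its difference was not tested. Smooth muscle and pericyte markers, the other cell type that expresses myocardin, had a median log2 fold change of -0.02 over 7 genes, with sums of 2848 to 3137 in KO hearts and 2894 to 3305 in WT hearts. Their median was 0.03 without KO replicate 1, -0.09 without KO replicate 2 and -0.07 without WT replicate 3.

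**Figure D1:**
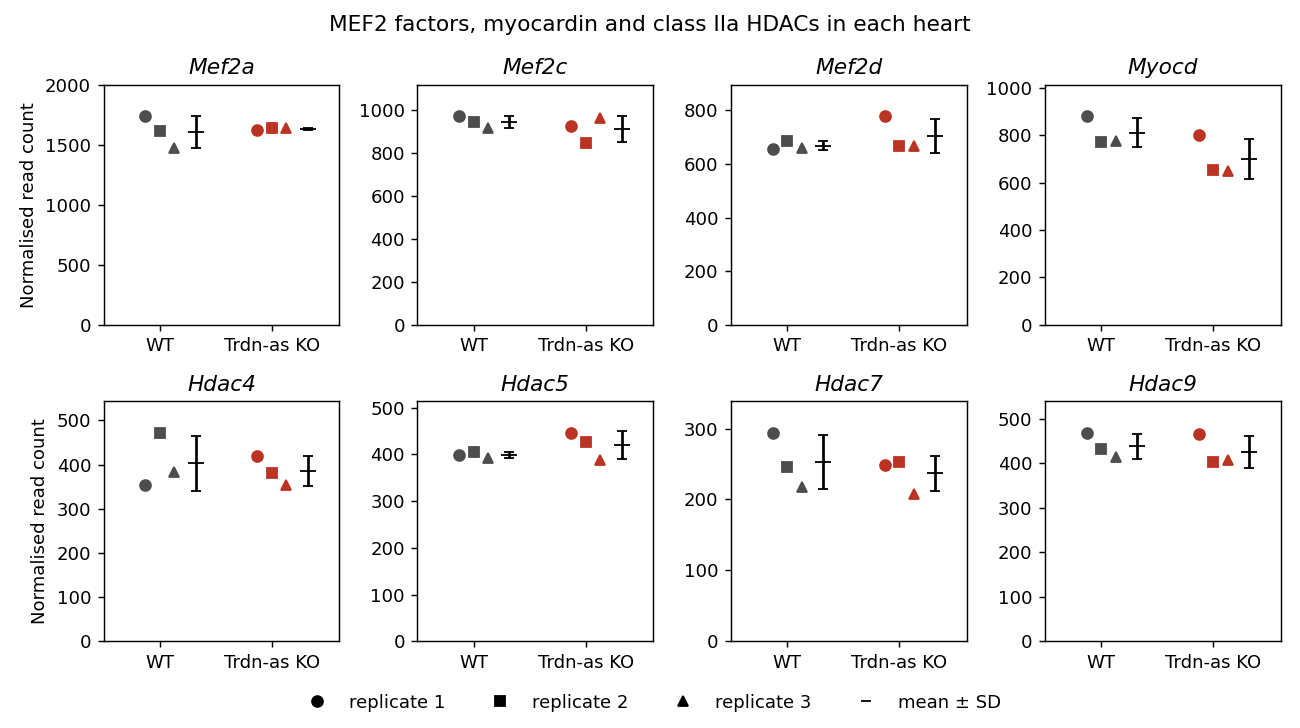
Normalised read count (vertical axes from 0) of the 8 genes in each WT heart (grey) and *Trdn-as* KO heart (red). Symbols mark the replicate number and black bars the mean ± SD of 3 hearts. KO and WT values overlap in every panel, and in the *Myocd* and *Hdac9* panels KO replicates 2 and 3 lie below all WT hearts.

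*Hdac4* (chr1:91928779-92180341, minus strand) encodes the deacetylase that responds to CaM kinase II. It had 420, 382 and 354 counts in the KO group versus 353, 472 and 383 in the WT group. WT hearts held both the lowest and the highest value. The means were 385 ± 33.1 and 403 ± 61.9 (SD, n = 3 each), and the log2 fold change was -0.06 with an interval from -0.25 to 0.14 (limma, adjusted p = 0.97).

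*Hdac5* (chr11:102194432-102230166, minus strand) encodes a deacetylase exported after phosphorylation by protein kinase D and CaM kinases. It had 446, 427 and 388 counts in the KO group versus 399, 404 and 392 in the WT group. KO replicates 1 and 2 were above all WT hearts and KO replicate 3 was below them. The means were 420 ± 29.6 and 398 ± 6.03 (SD, n = 3 each), and the log2 fold change was 0.08 with an interval from -0.07 to 0.22 (limma, adjusted p = 0.926).

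*Hdac7* (chr15:97792664-97844502, minus strand) is best known from endothelial cells and thymocytes. It had the lowest counts of the group, 249, 253 and 208 in the KO group versus 294, 246 and 218 in the WT group. WT replicate 1 was the highest heart and KO replicate 3 the lowest, and the other hearts of both groups lay between them. The log2 fold change was -0.09 with an interval from -0.31 to 0.13 (limma, adjusted p = 0.948). The 8 endothelial markers had a median log2 fold change of 0.04 and none had an unadjusted p under 0.05 in limma, with sums of 4540 to 5228 in KO hearts and 4546 to 5055 in WT hearts. Without KO replicate 1 their median was 0.13 and 1 marker was counted, and without WT replicate 3 the median was 0.01. With total scaling and with limma-voom 1 marker was counted and the median was 0.07.

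*Hdac9* (chr12:34047580-34528874, minus strand) encodes a deacetylase whose truncated splice form, MITR, also represses MEF2. It had 466, 402 and 406 counts in the KO group versus 468, 431 and 413 in the WT group. Replicate 1 was the highest heart in both groups, and KO replicates 2 and 3 were below every WT heart. The means were 425 ± 35.9 and 437 ± 28.0 (SD, n = 3 each), and the log2 fold change was -0.04 with an interval from -0.20 to 0.11 (limma, adjusted p = 0.97). Full-length *Hdac9* and MITR share the gene's total and were not separated.

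Across the group, 3 genes were nominally higher and 5 lower in KO hearts, and 0 of 8 had an adjusted p under 0.05, against 4 genes or 0.0291% of the 13753 tested. At an unadjusted p under 0.05 in limma, 1 of 8 was counted, *Myocd*, against 5.74% of all genes tested. In 0 of the 8 genes were KO and WT values free of overlap, against 9.07% of all genes tested. The median absolute log2 fold change was 0.06 over the 8 genes and 0.09 over all genes. The median standard error was 0.07 over the 8 genes and 0.12 over all genes. A p that misses the threshold does not show that levels were equal, and the widest 95% interval, that of *Hdac7*, still held a difference of -0.31.

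**Figure D2:**
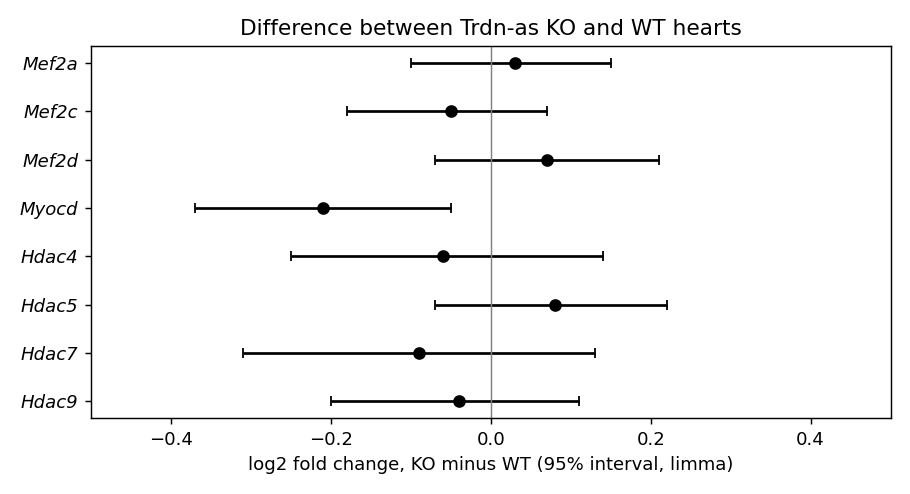
Log2 fold change of each gene, KO minus WT (horizontal axis, log2 units), with points for the limma estimate from 3 KO and 3 WT hearts and bars for the 95% interval. The interval of *Myocd*, from -0.37 to -0.05, is the one that does not reach 0 before adjustment over all genes.

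Levels of different genes were compared per kilobase of annotated exon. On this scale *Myocd* was first in WT hearts at 126 ± 9.49 normalised counts per exonic kilobase, followed by *Mef2d* at 112 ± 2.63 and *Mef2a* at 110 ± 9.17 (SD, n = 3 each). In KO hearts the order of these 3 genes was *Mef2d* at 118 ± 10.7, *Mef2a* at 112 ± 0.682 and *Myocd* at 109 ± 13.3. *Mef2d* and *Mef2a* overlapped across hearts in both groups, and *Myocd* lay above both in every WT heart but overlapped them in KO hearts. *Mef2c* came next, at 60.1 ± 1.69 per exonic kilobase in WT hearts and 58.0 ± 3.72 in KO hearts, apart from its neighbors in every heart. *Hdac5* was the highest class IIa deacetylase at 45.4 ± 0.687 in WT hearts and 47.9 ± 3.37 in KO hearts. *Hdac7* followed at 37.4 ± 5.69 and 35.0 ± 3.69, *Hdac9* at 29.8 ± 1.91 and 29.0 ± 2.45, and *Hdac4* at 25.5 ± 3.91 and 24.4 ± 2.10. *Hdac7* and *Hdac9* overlapped in KO hearts but not in WT hearts, and *Hdac9* and *Hdac4* in WT hearts but not in KO hearts. Annotated exons include all isoforms, so the level of a gene with many unused exons is understated. The exon annotation used for *Hdac4* and *Hdac9* spans other coordinates than the deposited table, so their levels per kilobase are less certain.

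**Figure D3:**
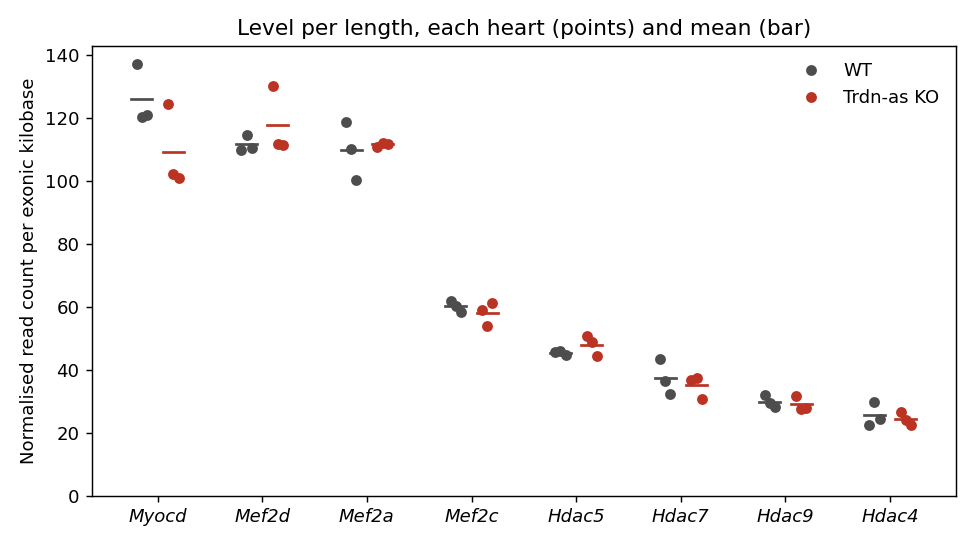
Normalised read count per exonic kilobase (vertical axis from 0) of the 8 genes, ordered by their mean over 6 hearts, with WT hearts in grey and *Trdn-as* KO hearts in red. Points are single hearts and short lines group means. The *Mef2a*, *Mef2d* and *Myocd* levels stand at 100.3 counts per kilobase or more in all hearts, and the deacetylases at 50.8 or less.

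The makeup of each family was taken from the same scale. The 3 MEF2 genes summed to 300, 278 and 284 counts per exonic kilobase in KO hearts against 290, 285 and 269 in WT hearts. *Mef2d* held 40.9% of that sum in KO hearts and 39.7% in WT hearts, *Mef2a* 38.9% in both, and *Mef2c* 20.2% and 21.4%. The 4 class IIa deacetylases summed to 146, 138 and 125 in the KO group versus 143, 142 and 129 in the WT group. *Hdac5* held 34.8%, 35.3% and 35.3% of the deacetylase sum in KO hearts against 31.7%, 32.5% and 34.5% in WT hearts. This share did not overlap between the groups, with means of 35.2% ± 0.312 and 32.9% ± 1.45 (SD, n = 3 each), and it was not tested. The shares of *Hdac4* (17.9% and 18.5%), *Hdac7* (25.7% and 27.0%) and *Hdac9* (21.3% and 21.6%), and those of the MEF2 genes, overlapped between the groups, so 1 of 7 shares was free of overlap, beside 9.07% of the single genes tested.

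Several hearts were high or low for most of the genes. In KO replicate 1, 7 of the 8 genes were above their mean over the 6 hearts, against 3 in KO replicate 2 and 2 in KO replicate 3. In WT hearts the numbers were 5, 6 and 1 for replicates 1, 2 and 3. WT replicate 3 was the lowest WT heart for 5 of the 8 genes. The most similar profiles across the 6 hearts were those of *Mef2d* and *Hdac5*, which differed by a root mean square of 0.051 log2 units, and the least similar of the 28 pairs were *Hdac4* and *Hdac7*, at 0.215. For *Mef2a* the spread in KO hearts, a coefficient of variation of 0.612%, was below the counting error of 2.39% that its 1648 to 1867 estimated reads allow. For *Hdac4* in WT hearts the spread was 15.4% against a counting error of 5.1%, and for *Hdac7* in WT hearts 15.2% against 6.5%.

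**Figure D4:**
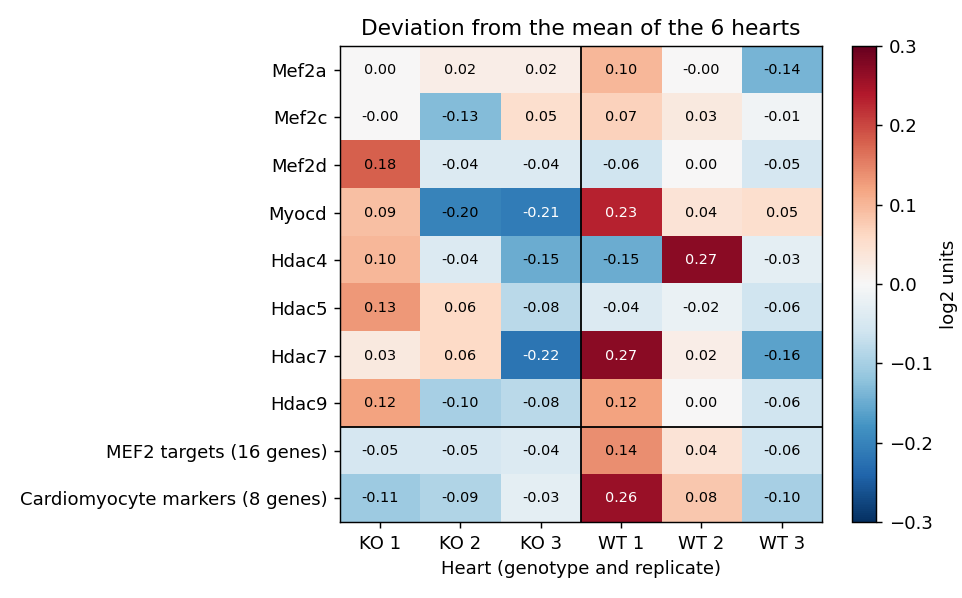
Deviation of each heart (columns) from the mean of the 6 hearts, in log2 units, for the 8 genes and for the median over 16 MEF2 targets and 8 cardiomyocyte markers (rows). Red is above and blue below the mean. WT replicate 1 is the high heart for the cardiomyocyte markers (0.26), the MEF2 targets (0.14), *Myocd* (0.23) and *Hdac7* (0.27), but not for *Hdac4* (-0.15).

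Other transcripts lie inside or against these genes. Gm44667 and Gm44668 sit in introns of *Mef2a* on its strand and had 257 to 304 and 65 to 90 counts, with log2 fold changes of -0.06 and 0.12 (limma, unadjusted p = 0.488 and 0.432). Gm37036, on the strand of *Hdac4*, had 9 to 19 counts and a log2 fold change of -0.02, and Gm37048, on the opposite strand, was at 0 in 5 hearts and at 3 in WT replicate 2. *Slc48a1*, a heme transporter gene whose end overlaps *Hdac7* exons on the other strand, had 160 to 186 counts and a log2 fold change of 0.06 (limma, unadjusted p = 0.529). The antisense RNA 1700113A16Rik at the end of *Mef2d* had 2 to 8 counts. The counting used strand, so these opposite-strand genes were kept apart from *Hdac7* and *Mef2d*.

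The machinery for export and import of class IIa deacetylases at the nucleus was represented by 23 genes. They encode kinases, 14-3-3 proteins and the exportin of *Xpo1*, and 21 were abundant enough to test. In KO hearts 7 were nominally higher and 14 lower, with a median log2 fold change of -0.04 against 0.00 over all genes tested, and 0 passed the adjusted threshold in limma. The most abundant genes were *Camk2d*, the main cardiac CaM kinase II isoform, *Xpo1* and the 14-3-3 gene *Ywhae*, with log2 fold changes of -0.09, -0.00 and -0.07. At an unadjusted p under 0.05, 1 of the 21 was counted, near the 5.74% of all genes tested. That gene, *Sik1*, a salt-inducible kinase that phosphorylates class IIa deacetylases, had 158, 122 and 136 counts in the KO group versus 175, 184 and 155 in the WT group. Only KO replicate 1 reached into the WT range. Its log2 fold change was -0.31 with a standard error of 0.11 (limma, unadjusted p = 0.0108, adjusted p = 0.807). The count for this list was 0 without KO replicate 2 or WT replicate 2 and 3 without WT replicate 3.

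The corepressor partners showed no call at the adjusted threshold. Of 10 genes, 5 were nominally higher and 5 lower, the median was -0.00, and 0 had an unadjusted or adjusted p under 0.05 in limma. With total scaling and with limma-voom, 1 of these genes had an unadjusted p under 0.05, and it was higher in KO hearts. The count was also 1 when any heart but WT replicate 3 was left out. The gene counted was lower in KO hearts without KO replicate 1 and higher in the other cases. *Ncor1* and *Tbl1xr1*, parts of the nuclear receptor corepressor complex that class IIa deacetylases recruit with *Hdac3*, had log2 fold changes of -0.04 and 0.01. Among 6 other deacetylase genes, 3 were nominally higher and 3 lower, with *Hdac2*, *Hdac1* and *Hdac11* at -0.02, 0.09 and -0.02, and 0 had an unadjusted p under 0.05 in limma. The coactivators and kinases of MEF2 and myocardin gave 4 higher and 8 lower of 12, and 0 at an unadjusted p under 0.05 in limma. For this list 1 higher gene was counted with the replicate block, without KO replicate 2 and without WT replicate 1. The acetyltransferase genes *Crebbp* and *Ep300* and the coactivator gene *Ncoa2* had log2 fold changes of 0.07, -0.02 and -0.06.

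Calcineurin, a calcium-activated phosphatase that acts on NFAT and also feeds into MEF2, was covered by 10 genes, 5 nominally higher and 5 lower, with a median of -0.00. At an unadjusted p under 0.05 in limma, 1 of 10 was counted, beside 5.74% of all genes tested. That gene, *Rcan2*, a calcineurin regulator, had 1416, 1440 and 1469 counts in the KO group versus 1680, 1539 and 1527 in the WT group, with every KO heart below every WT heart. Values without overlap were found in 2 of the 10 genes, beside 9.07% of all genes. The *Rcan2* log2 fold change was -0.13 with a standard error of 0.06 (limma, unadjusted p = 0.027, adjusted p = 0.851). No calcineurin or NFAT gene was counted as lower in limma with the read density correction, without the trend, or when KO replicate 1, KO replicate 2 or WT replicate 1 was left out. The catalytic subunit gene *Ppp3cb* and the regulatory subunit gene *Ppp3r1* had log2 fold changes of 0.02 and -0.05.

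MEF2 targets in muscle were the list with the most genes at an unadjusted p under 0.05, 7 of 16, and 0 passed the adjusted threshold in limma. Of the 7, 5 were lower in KO hearts, against 2.80% of all genes tested, and 2 were higher, against 2.94%. The list's median log2 fold change was -0.10, with 6 genes nominally higher and 10 lower. KO and WT values did not overlap in 4 of the 16, *Xirp2*, *Ppargc1a*, *Jun* and *Klf2*, beside 9.07% of all genes tested. *Xirp2*, an actin-binding protein of the intercalated disc, had 6151, 5712 and 5939 counts in the KO group versus 7295, 6840 and 6551 in the WT group. All KO hearts were below all WT hearts, and the log2 fold change was -0.22 with a standard error of 0.06 (limma, unadjusted p = 0.000916, adjusted p = 0.518). *Hrc*, a histidine-rich calcium-binding protein of the sarcoplasmic reticulum, and *Des*, the desmin gene, had log2 fold changes of -0.15 and -0.14 (limma, unadjusted p = 0.0291 and 0.0426). *Myom1*, an M-band protein gene, and *Ppargc1a*, a regulator of mitochondrial genes, had -0.14 and -0.12 (limma, unadjusted p = 0.0248 and 0.0461). In the other direction stood 2 immediate early or flow-responsive genes. *Jun*, an AP-1 subunit, had 332, 356 and 315 counts in the KO group versus 284, 272 and 247 in the WT group, again without overlap. Its log2 fold change was 0.32 with a standard error of 0.08 (limma, unadjusted p = 0.00071, adjusted p = 0.518). *Klf2*, a Krüppel-like factor of endothelium, had 96, 88 and 92 counts against 78, 66 and 83, a log2 fold change of 0.28 (limma, unadjusted p = 0.0422).

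The cardiomyocyte markers were nominally lower beside these targets. Of the 8 markers, 0 had an adjusted p under 0.05 in limma, and their log2 fold changes lay within a range of -0.17 to -0.14. At an unadjusted p under 0.05, 6 were lower in KO hearts, against 2.80% of all genes tested, and 0 were higher, against 2.94%. The target and marker counts depended on single hearts, on the trend and on scaling. With total scaling 3 targets and 3 markers were lower at an unadjusted p under 0.05 in limma, with 2 targets higher. With the replicate block 5 targets and 4 markers were lower, with 2 targets higher. The lower targets numbered 1 in place of 5 without WT replicate 1, without WT replicate 2, without KO replicate 2 and without the mean-variance trend, with 2, 1, 2 and 2 higher. They numbered 3, with 1 higher, without KO replicate 3 and 8, with 2 higher, without WT replicate 3. The marker count was 1 without WT replicate 1, where the marker median was -0.06 and the target median -0.04. No marker was counted in limma when KO replicate 1, WT replicate 2 or the trend was left out, 1 was counted without KO replicate 2, and 8 without WT replicate 3, with a marker median of -0.24. When each library's deviation was corrected for read density, 4 targets were higher and 1 lower at an unadjusted p under 0.05, the target median was -0.03, and 0 markers were counted with a median of -0.04. The parts of cardiomyocyte content and of read depth in the target values were not tested.

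The smooth muscle genes that myocardin and serum response factor drive gave 4 higher and 6 lower of 10, with a median of -0.03. *Des*, shared with the MEF2 list, was the 1 gene at an unadjusted p under 0.05 in limma. No gene of this list was counted as lower in limma with total scaling or the read density correction, without the trend, or when 1 of KO replicates 1 and 3 or WT replicates 1 and 2 was left out. The list gave 6 higher and 4 lower without KO replicate 1, WT replicate 1 or WT replicate 2, with medians of 0.03 to 0.04. Its median was -0.09 without KO replicate 2 or WT replicate 3. *Smtn* and *Myh11*, contractile genes of smooth muscle, had log2 fold changes of 0.05 and -0.02. Taking all lists as one, 9 of 84 genes tested had an unadjusted p under 0.05 in limma, against 5.74% of all genes tested, and 0 had an adjusted p under 0.05. KO and WT values did not overlap in 10 of the 84, near the 9.07% of all genes.

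**Figure D5:**
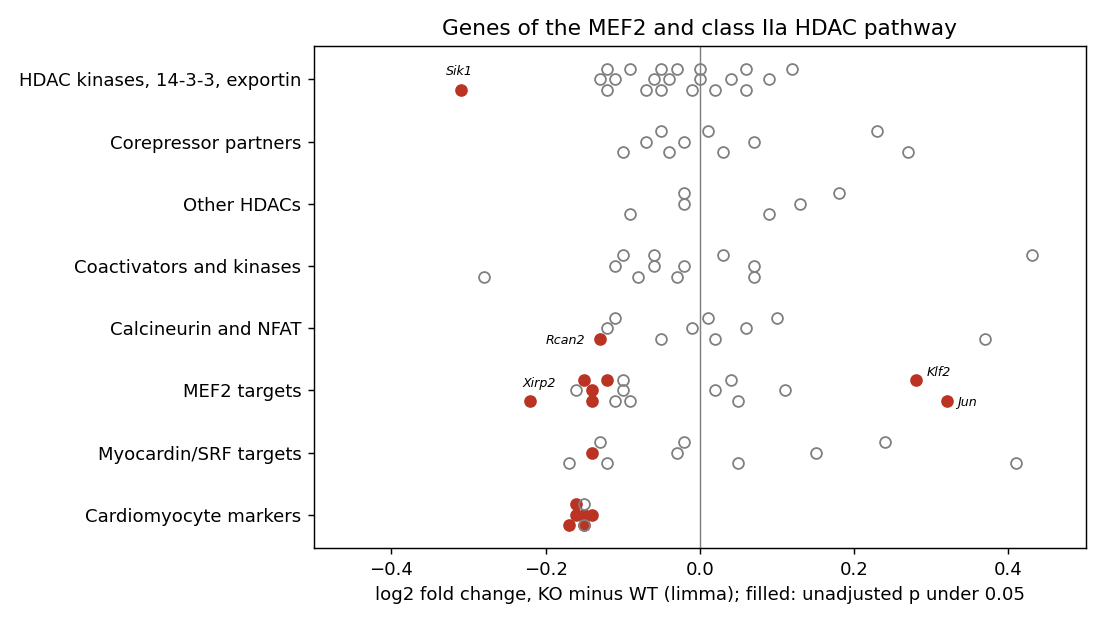
Log2 fold change, KO minus WT (horizontal axis, log2 units), of each tested gene of the pathway lists and of the cardiomyocyte markers (rows). Filled points have an unadjusted p under 0.05 in limma. The lower filled targets *Hrc*, *Des* and *Myom1* lie within the span of the cardiomyocyte markers (-0.17 to -0.14), *Xirp2* (-0.22) and *Ppargc1a* (-0.12) lie outside it, and *Jun* and *Klf2* lie on the other side of 0.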

How the data were processed

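The authors trimmed the reads with Trimmomatic 0.39, aligned them to GRCm38/mm10 with STAR 2.6.1d, removed duplicates with Picard 2.21.1 along with multi-mapping, ribosomal and mitochondrial reads, counted them per gene with featureCounts 1.6.5 by strand, leaving out ambiguous reads, and normalised with DESeq2 1.18.1, as the study's methods and the submitters' processing notes give it. The deposited values (unit score) are counts divided by a size factor and rounded to whole numbers, so depth is kept only indirectly. Each library's factor was estimated from the spacing of its values (0.7951 in WT replicate 1 to 1.149 in KO replicate 1), and 3 reads correspond to 2.61 to 3.77 normalised counts. Counting errors given beside a spread cover the counting of reads only, while the 95% intervals of fold changes rest on the spread between hearts.

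The contrast of KO with WT hearts was fitted in limma 3.58.1 under R 4.3.3 (mean-variance trend, two-sided, Benjamini-Hochberg adjustment) on log2(value + 1) of the 13753 genes with a mean of at least 10. Fold changes are on this scale. The test was checked on simulated data. Exon lengths came from GENCODE M21, which held 99.8% of the gene IDs, with the same coordinates for 75.2%. Genes named were the 8 members, *Trdn-as* and *Trdn*, features overlapping a member, and, per list, the 3 most abundant genes and those with an unadjusted p under 0.05. A gene that this rule names is not reported here. Members and lists were chosen with earlier results of these data known. The alternatives changed the filter, pseudocount, scaling, trend, test, read density, replicate block and samples.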

Additional observations from a re-analysis of the deposited data

How the results depend on the processing

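No member and no list gene passed the adjusted threshold in limma under any of the 15 alternatives. Genes with an adjusted p under 0.05 over the whole table numbered 4, and 2 when at least 10 was required in every heart, 1 without the mean-variance trend, and 2 to 32 when 1 heart was left out (32 without KO replicate 1, 7 without WT replicate 3). Members with an unadjusted p under 0.05 numbered 1, and 0 without the trend, where *Myocd* had a p of 0.105, and 0 to 1 when 1 heart was left out. List genes with an unadjusted p under 0.05 numbered 9, and 4 to 14 when 1 heart was left out, 4 without WT replicate 2 and 14 without WT replicate 3. *Myocd* was lower in all 15 alternatives, from -0.31 to -0.15, with an adjusted p of 0.081 to 0.999. *Mef2c* and *Hdac5* kept their direction too, although *Mef2c* came to -0.0009 without KO replicate 2 (leave-one-out range -0.09 to -0.0009). The leave-one-out range of *Hdac5* was 0.03 to 0.13. *Mef2a* turned to -0.04 without WT replicate 3 (leave-one-out range -0.04 to 0.08). *Mef2d* turned to -0.0008 without KO replicate 1 (range -0.0008 to 0.11). *Hdac4* turned to 0.0034 without KO replicate 3 and 0.06 without WT replicate 2 (range -0.15 to 0.06). *Hdac7* turned to 0.0013 without KO replicate 3 and 0.03 without WT replicate 1 (range -0.19 to 0.03). *Hdac9* turned to 0.01 without WT replicate 1 (range -0.11 to 0.01). The cause was not tested. Scaling by totals and limma-voom moved the median of all genes by 0.02 and 0.03.

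The labels link same-numbered KO and WT hearts by the number only. Correlations of their deviations across genes were 0.05, -0.07 and -0.03, which cannot show whether the hearts were paired. With the replicate block, 4 genes and 0 members had an adjusted p under 0.05, 10 list genes had an unadjusted p under 0.05, and *Myocd* had a log2 fold change of -0.21 (limma, unadjusted p = 0.00276, adjusted p = 0.637). With 3 hearts in each group and 2.59 M to 3.62 M estimated reads, the intervals of the members other than *Myocd* include 0, and that of *Hdac7* reaches from -0.31 to 0.13.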
